A study of Mus musculus with 7 samples.

Results

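The Hox genes of the mouse were followed through RNA libraries of whole abdominal aorta. All rows of the expression table whose gene name is Hoxa, Hoxb, Hoxc or Hoxd plus a number were taken, which gave 39 of 32544 genes. Of these 39, 28 had reads in at least 1 library and 11 had 0 reads in all 7 libraries. The 11 were Hoxa6, Hoxa11, Hoxa13, Hoxb8, Hoxb13, Hoxc5, Hoxc11, Hoxc12, Hoxc13, Hoxd1 and Hoxd12.

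All mice were male Apoe-/- animals, which lack apolipoprotein E and form atherosclerotic plaques, and ate a high-fat diet for 12 weeks. Each week they were injected intravenously with ITA-LNP or with a control LNP, at 50 mg/kg. LNP commonly stands for lipid nanoparticle, and the series title points to itaconate, a metabolite of activated macrophages, as the cargo behind ITA. The labels do not give the ages of the mice. Of the 7 libraries, 3 were labelled ITA-LNP and 4 control-LNP, and the labels do not say whether each came from its own mouse. P-values therefore measure the spread between these libraries, which may be partly technical.

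Hox genes encode transcription factors with a homeodomain, the DNA-binding fold coded by the homeobox. In the mouse they lie in the clusters HoxA, HoxB, HoxC and HoxD, and genes with the same paralog number in different clusters are descended from one ancestral gene. During development, genes at the 3′ end of a cluster, with low numbers, come on early and reach far toward the head, and genes at the 5′ end, with high numbers, are confined to the tail end of the trunk. Adult fibroblasts and vascular smooth muscle keep part of this pattern, so that a vessel carries a Hox code of its position, and some Hox genes are also active in blood progenitors.

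In the GENCODE M21 annotation on mm10, HoxA lies at chr6:52155590-52260880 on the minus strand with 11 genes, and HoxB at chr11:96194316-96368256 on the plus strand with 10. HoxC at chr15:102921103-103036852 and HoxD at chr2:74668310-74765142 are on the plus strand with 9 genes each. Ordered by the 3′ ends of their genes, the paralog numbers rose from the 3′ to the 5′ end in all 4 clusters. Members that carry the results below can be told apart by their homeobox DNA. The 30 bases shown are positions 139 to 168, counted from the first base of the 180-base homeobox, and code for a conserved stretch of the helix that touches DNA. They were read from GENCODE M21 transcripts, 5′ to 3′. Capitals mark bases that differ from Hoxa5, the most abundant member. The set holds an anterior (Hoxa2), a central (Hoxa5) and a posterior (Hoxc10) gene that rose with ITA-LNP, and Hoxb4, the most abundant member in the control-LNP libraries.
Hoxa2: GtGtggttTcaGaacCggagAatgaagCAT
Hoxb4: atctggttccaGaaTCggCgCatgaagtgg
Hoxa5: atctggttccaaaacaggaggatgaagtgg
Hoxc10: atctggttTcaaaaTCgCagAatgaaACTC
Within this stretch Hoxb4 differed from Hoxa5 at 5 bases, and Hoxa2 and Hoxc10 at 9 each. Over the whole homeobox Hoxb4 was 75.6% identical to Hoxa5, Hoxc10 60.6% and Hoxa2 58.9%. Among all pairs of members, pairs with the same paralog number had a median identity of 80.6% (39 pairs, 67.2% to 93.9%), and pairs in the same cluster with different numbers one of 61.7% (164 pairs). Hoxd4, whose transcripts gave unlike homeoboxes, was left out. Reads came from transcript 3′ ends, where the longest run shared by different members was 47 bases, between Hoxa6 and Hoxa7.

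The upstream sequence of the leading member of each group is shown for the same reason, as the 250 bases before the start in RefSeq on GRCm38.p6, with capitals at CpG dinucleotides. The window of Hoxa5 is chr6:52204588-52204837 on the minus strand and that of Hoxb4 chr11:96318017-96318266 on the plus strand. Neither holds an exon.
Hoxa5: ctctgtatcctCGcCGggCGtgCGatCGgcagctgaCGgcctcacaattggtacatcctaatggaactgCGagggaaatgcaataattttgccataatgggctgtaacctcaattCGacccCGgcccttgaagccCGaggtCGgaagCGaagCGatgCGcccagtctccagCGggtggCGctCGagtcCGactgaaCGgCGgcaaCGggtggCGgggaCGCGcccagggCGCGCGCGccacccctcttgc
Hoxb4: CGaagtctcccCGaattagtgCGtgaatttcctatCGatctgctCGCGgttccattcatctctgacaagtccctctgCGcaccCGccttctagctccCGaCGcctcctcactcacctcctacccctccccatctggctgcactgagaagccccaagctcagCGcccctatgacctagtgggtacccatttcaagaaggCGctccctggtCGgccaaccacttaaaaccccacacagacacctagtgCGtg
Hoxa5 had 28 CpG in its window and Hoxb4 14. RefSeq windows were matched for 22 of the 39 members, with a median of 12 CpG, against 6 over the windows of 27025 genes. Those of Hoxa3, Hoxa6, Hoxa7, Hoxb1, Hoxc4, Hoxd3, Hoxd9 and Hoxd11 overlap exons annotated to the gene itself. Those of Hoxa11 and Hoxd1 overlap exons of other genes. The CpG and motif counts therefore include some transcribed sequence. AGGTCA, the half-site of retinoic acid receptors, was searched on both strands and found in 6 of the 22 windows (27.3%, against 13.8% of all windows), including that of Hoxb4. TGATTNAT, a Hox and Pbx motif, was found on either strand in that of Hoxa2 (4.55% against 2.99%), and TTTATTG, a Cdx and posterior Hox motif, in that of Hoxb8 (4.55% against 4.42%). TATAAA, searched on the gene's strand, was found in that of Hoxd13 (4.55% against 8.12%). A match is a description of the letters and not a bound site.

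The libraries held 5077073 to 7281721 reads, so that 0 reads of a gene allow up to 0.412 to 0.591 CPM (reads per 1000000 reads). Such limits, taken at 3 reads, and all counting intervals cover counting error only. Because reads came from the 3′ ends of transcripts, gene length does not enter the level. Control-LNP replicate 2 stood apart, with 10846 genes detected, where the ITA-LNP libraries had 12226 to 12856 and the remaining control-LNP libraries 14232 to 15333. Across genes its correlation with the remaining control-LNP libraries was 0.7268 to 0.7388, and the correlation among these was 0.9698 to 0.9749. The libraries labelled control-LNP held few transcripts of the vessel wall. Smooth muscle markers, all 10 of them detected in both groups, summed to 17588 to 21211 CPM in the ITA-LNP and 158 to 471 CPM in the control-LNP libraries, and platelet markers to 88.9 to 170 CPM and 5073 to 6556 CPM. In such bulk tissue, fewer cells of a type and less RNA per cell cannot be told apart.

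The abdominal aorta libraries carried Hox transcripts of paralogs 1 to 10 and almost none of paralogs 11 to 13. Of the 30 members numbered 1 to 10, 26 had reads. Of the 9 members numbered 11 to 13, which act at the sacral and tail end of the embryo, 7 were at 0 in all libraries. The other two were Hoxd11, with 1 read in ITA-LNP replicate 1, and Hoxd13, with 1 read in control-LNP replicate 1. Their levels were not distinguishable from 0 at this depth.

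**Figure D1:**
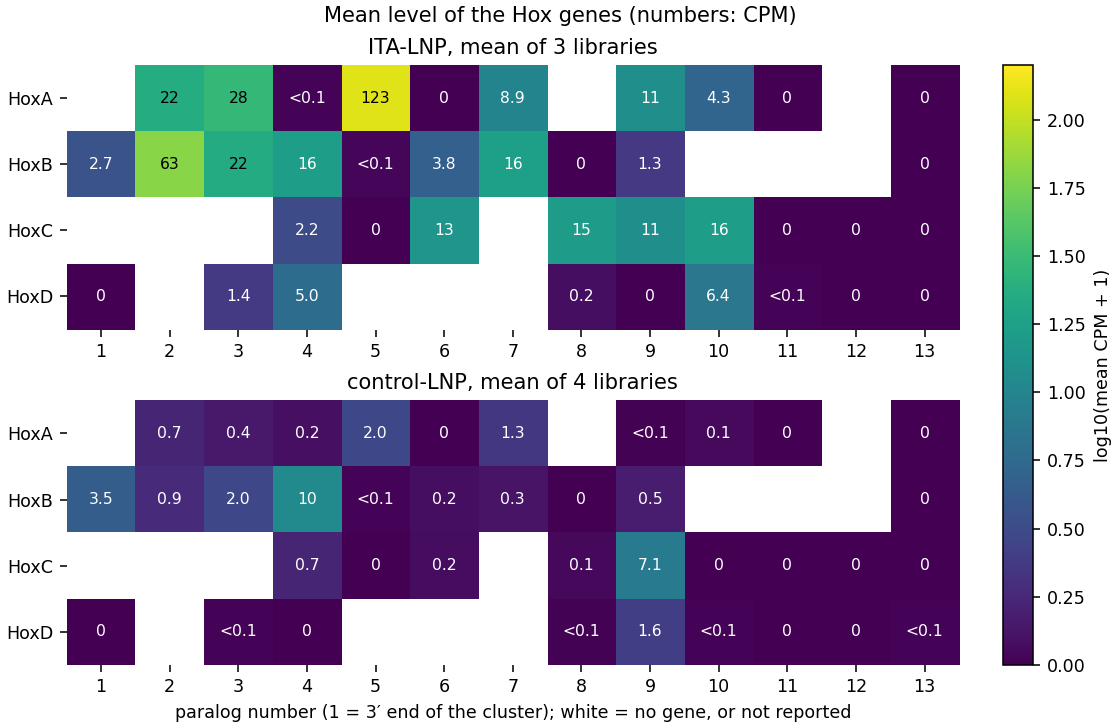
Mean CPM of the Hox genes by cluster (rows) and paralog number (columns), ITA-LNP above and control-LNP below, coloured by log10(mean CPM + 1) and printed as CPM, with white where there is no gene or none reported. The ITA-LNP panel is led by Hoxa5 at 123 CPM, and the cells of paralogs 11 to 13 are at or next to 0 in both panels.

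Summed over all 39 members, the Hox genes made up 418, 427 and 378 CPM in ITA-LNP replicates 1 to 3 and 42.7, 27.4, 25.2 and 35.3 CPM in control-LNP replicates 1 to 4. The means were 408 ± 26.1 CPM (SD, n = 3) and 32.6 ± 8.0 CPM (SD, n = 4), a ratio of 12.5. The groups did not overlap, and the ITA-LNP total varied little although its members varied much. By position along the body axis, the ITA-LNP libraries had 153 ± 58.5 CPM of the anterior members, numbered 1 to 3. The central members, 4 to 8, gave 204 ± 34.5 CPM, and the posterior members, 9 to 13, gave 50.8 ± 12.8 CPM. In the control-LNP libraries these were 8.04 ± 4.91, 15.1 ± 9.05 and 9.45 ± 9.34 CPM, the last 5.03 CPM without control-LNP replicate 2. The highest paralog group with ITA-LNP was 5, at a mean of 123 CPM, followed by 2 at 85.4 and 3 at 51.1 CPM. Single libraries weighed on these means: paralog group 2 was at 46.4, 151 and 58.5 CPM in ITA-LNP replicates 1 to 3, and group 3 at 110, 15.6 and 27.2 CPM. In the control-LNP libraries the highest was 4, at 11 CPM, followed by 9 at 9.22 CPM, where replicate 2 had 22.7 CPM and the others 1.73 to 8.47 CPM.

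**Figure D2:**
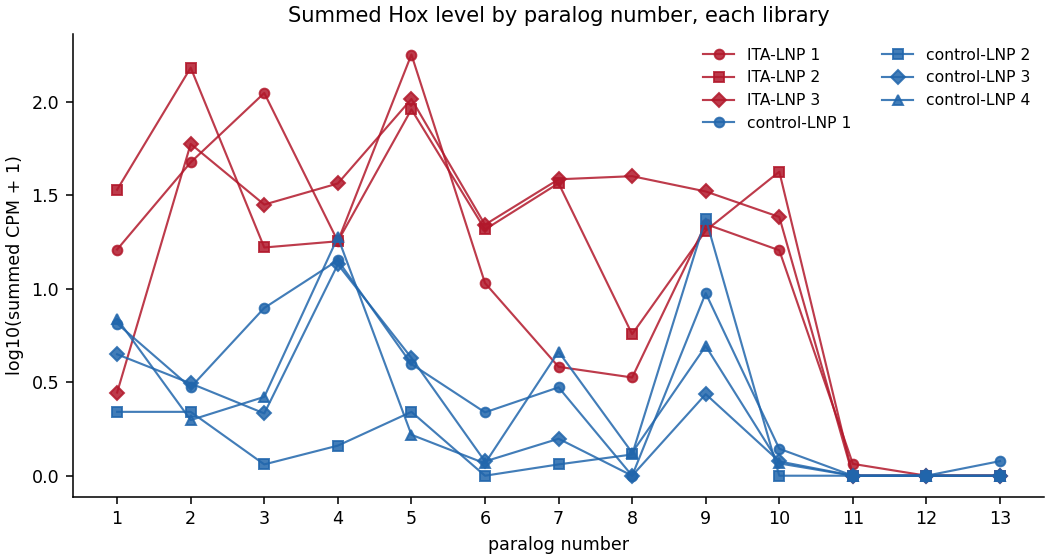
Summed level of each paralog group from 1 to 13 as log10(summed CPM + 1), with 1 line per library, ITA-LNP in red and control-LNP in blue. ITA-LNP replicates 1 and 3 peak at paralog 5 and replicate 2 at paralog 2, and all lines are at or next to 0 from paralog 11 on.

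Of the 39 members, 16 reached the filter for testing, an average log2(CPM + 1) over the 7 libraries of 1 or more. Of the rest, 12 had reads below the filter, with Hoxd4 the highest at 102 reads in all, and 11 had none. Of the 16 tested, 6 rose with ITA-LNP and 0 fell at an adjusted p under 0.05 (limma, adjusted over 12636 genes), where 10.3% of all tested genes rose and 5.15% fell. At an unadjusted p under 0.05 there were 11, and 0 of these were lower. The share of all tested genes at that unadjusted threshold was not counted, so the 11 are a description only. A log2 fold change above 0 was found for 15 of the 16, against 53.6% of all tested genes, and the median was 3.01 against 0.15 over all tested genes. Members with reads mainly in 1 group pass the filter through that group, so these counts describe the 16 and not all 39. The same limit holds for the counts of the gene lists below. With the libraries centred on their medians, 2 of the 6 calls remained, Hoxa5 and Hoxb2, and the median over all genes moved from 0.15 to -0.98. That centring also changed the split over all genes from 1306 higher and 651 lower to 741 and 1249. The split was 1614 and 1401 with quantile normalization and 1988 and 2065 without control-LNP replicate 2, and the lower genes numbered 411 and 401 without control-LNP replicates 3 and 4.

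**Figure D3:**
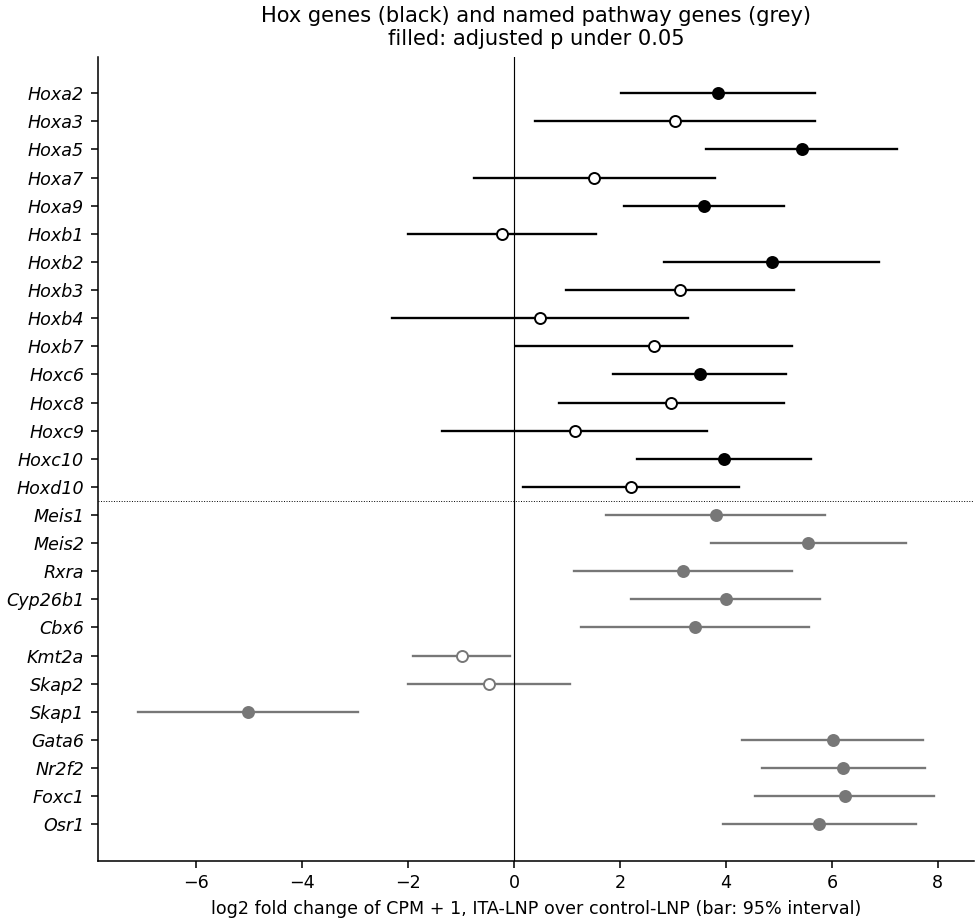
Log2 fold change of CPM + 1, ITA-LNP over control-LNP, with 95% intervals, for tested Hox genes (black, ordered by cluster and number) and the named genes of the lists (grey). Filled points have an adjusted p under 0.05, and the Hox values run from -0.23 for Hoxb1 to 5.43 for Hoxa5.

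Among the anterior members, Hoxa2 and Hoxb2 rose. Both pattern the hindbrain and the second pharyngeal arch. Hoxb2 (chr11:96350525-96354012) was at 27.1, 122.9 and 40.4 CPM in ITA-LNP replicates 1 to 3, against 1.58, 0.748, 0.192 and 0.984 CPM in the 4 control-LNP libraries in the same order. Hoxb2 rose by 4.86 ± 0.90 on the log2 scale (± SE here and below; limma, adjusted p = 0.00522), and its ITA-LNP mean of 63.5 CPM fell to 33.8 CPM without ITA-LNP replicate 2. The last 500 bases of 7 members hold an exon of another gene. In 6 of them it lies on the other strand: Hoxb3os for Hoxb2 and Hoxb3, Hoxaas2 for Hoxa3, Gm29430 for Hoxa4, Hoxaas3 for Hoxa7 and Haglr for Hoxd3. In Hoxd4 it is Gm28230 on the same strand. Since the strand used in counting is not given, reads of the 6 pairs on opposite strands cannot be told apart. For Hoxd4 and Gm28230, on the same strand, no strand setting would separate them. The levels of the 7 are uncertain to that extent. Hoxa2 (chr6:52162417-52164831) was at 19.3, 28.3 and 18.1 CPM with ITA-LNP, against 0.394, 0.449, 1.92 and 0 CPM in the control-LNP libraries. Every ITA-LNP value of both genes lay above every control-LNP value. The log2 fold change of Hoxa2 was 3.85 ± 0.82 (adjusted p = 0.0104, limma), and the call was lost without control-LNP replicate 4 (adjusted p = 0.0612).

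Hoxb3 and Hoxa3, of the group needed for the thymus, parathyroids and pharyngeal arch arteries, did not pass. Hoxb3 was at 36.7, 14.7 and 13.9 CPM with ITA-LNP, against 5.71, 0, 0.962 and 1.31 CPM in the control-LNP libraries. These groups did not overlap either, but the log2 fold change of 3.14 ± 0.96 missed the threshold (adjusted p = 0.0554, limma) and passed it without control-LNP replicate 2 (2.73, adjusted p = 0.0313). Hoxa3 was at 73.7, 0.884 and 9.20 CPM with ITA-LNP, against 1.18, 0.150, 0.192 and 0.164 CPM in the control-LNP libraries. Here the groups overlapped, because ITA-LNP replicate 2 was below control-LNP replicate 1. The log2 fold change of Hoxa3 was 3.05 ± 1.18 (adjusted p = 0.122, limma), or 4.34 without ITA-LNP replicate 2 (adjusted p = 0.0253).

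Hoxb1, which acts in hindbrain segmentation, had the only negative log2 fold change of the tested members, at 4.08, 2.21 and 1.79 CPM against 5.32, 1.2, 3.46 and 3.94 CPM. The groups overlapped, and the log2 fold change of -0.23 ± 0.79 (adjusted p = 0.894, limma) had a 95% interval of -2.01 to 1.55, which allows changes of several-fold either way. Hoxd3 had 30 reads in ITA-LNP replicate 3, 0 in the other two and 1 read over all control-LNP libraries.

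Among the central members, Hoxa5 stood highest. It is known for its part in lung, diaphragm and cervical spine development, and it is expressed in adult vessel wall. Hoxa5 (chr6:52201754-52204587) was at 177.7, 90.0 and 102.3 CPM with ITA-LNP, against 2.76, 1.2, 3.27 and 0.656 CPM in the control-LNP libraries. The lowest ITA-LNP library was far above the highest control-LNP library. The means were 123 ± 47.5 CPM (SD, n = 3) and 1.97 ± 1.24 CPM (SD, n = 4), and the log2 fold change was 5.43 ± 0.80 (adjusted p = 0.00178, limma). Hoxa5 supplied 42.5%, 21.1% and 27.0% of all Hox reads in the ITA-LNP libraries.

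Hoxc6 and Hoxc8 are thoracic members that also pattern limb-level motor neurons. Hoxc6 (chr15:102998257-103011881) was at 9.72, 19.7 and 9.75 CPM with ITA-LNP, against 0.394, 0, 0.192 and 0.164 CPM in the control-LNP libraries. Its log2 fold change was 3.50 ± 0.73 (adjusted p = 0.00913, limma), and the call was lost without control-LNP replicate 3 (adjusted p = 0.0576) or 4 (0.0602). Hoxc8 was at 2.04, 4.42 and 39 CPM with ITA-LNP, against 0, 0.150, 0 and 0.328 CPM in the control-LNP libraries. Neither gene's groups overlapped. Hoxc8 did not pass (2.97 ± 0.95, adjusted p = 0.0653, limma), but passed without ITA-LNP replicate 1 (3.73, adjusted p = 0.0328), and its ITA-LNP mean of 15.2 CPM was 3.23 CPM without ITA-LNP replicate 3. The annotated body of Hoxc5 reaches over Hoxc6 to Hoxc10, and Hoxc5 itself had 0 reads.

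Hoxb4 had the smallest positive log2 fold change of the tested members. It is known for enlarging the pool of blood stem cells when overexpressed. Hoxb4 (chr11:96318267-96321638) was at 9.88, 2.21 and 35.6 CPM with ITA-LNP, against 11.8, 0.299, 10.8 and 17.4 CPM in the control-LNP libraries. The groups overlapped: control-LNP replicate 2 was the lowest library and ITA-LNP replicate 3 the highest. The log2 fold change of 0.49 ± 1.24 (adjusted p = 0.852, limma) had a 95% interval of -2.31 to 3.28, and without control-LNP replicate 2 it was -0.37. Hoxb4 supplied 27.6%, 1.09%, 42.7% and 49.3% of Hox reads in control-LNP replicates 1 to 4. It was thus the leading member in 3 of these 4 libraries.

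Hoxb7 and Hoxa7, thoracic members, differed strongly among the ITA-LNP libraries. Hoxb7 was at 0, 12.7 and 36.5 CPM with ITA-LNP, against 0.591, 0.150, 0 and 0.492 CPM in the control-LNP libraries (log2 fold change 2.64 ± 1.16, adjusted p = 0.165, limma). Without ITA-LNP replicate 1, which had no read, it passed (4.14, adjusted p = 0.0140). Hoxa7 was at 2.82, 23.0 and 0.961 CPM against 1.38, 0, 0.577 and 3.12 CPM and did not pass (1.51 ± 1.01, adjusted p = 0.374, limma). Of the other central members, Hoxb6 reached 11.3 CPM in ITA-LNP replicate 3 and was at 0 in the other ITA-LNP libraries. In the control-LNP libraries it was at 0.788, 0, 0 and 0 CPM. Hoxc4 reached 6.59 CPM in ITA-LNP replicate 1 and was at 0 in the other ITA-LNP libraries, against 1.38, 0.150, 0.962 and 0.328 CPM in the control-LNP libraries. Hoxd4 was at 0.471, 14.6 and 0 CPM with ITA-LNP, against 0 reads in all control-LNP libraries, a mean at least 9.52-fold higher against the limit of 3 reads per library, although its mean was 0.235 CPM without ITA-LNP replicate 2. Hoxa4, Hoxb5 and Hoxd8 stayed at or below 0.769 CPM in every library.

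**Figure D4:**
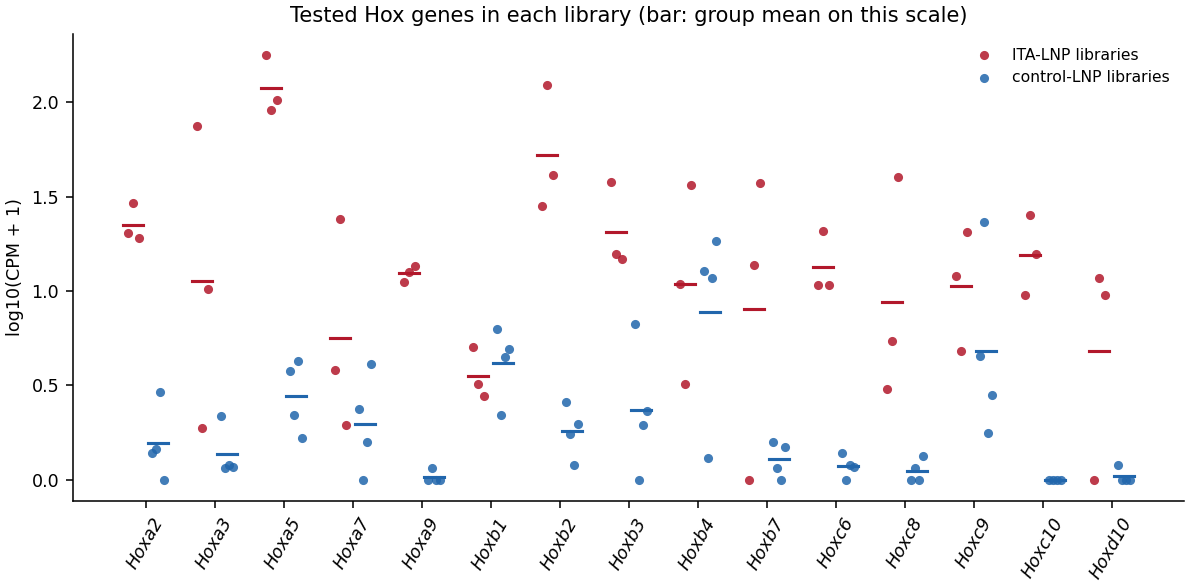
Level of tested Hox genes in each library as log10(CPM + 1), ITA-LNP in red and control-LNP in blue, with a bar at each group's mean on this scale. The ITA-LNP points of Hoxa5 stand for 90.0 to 177.7 CPM and its control-LNP points for at most 3.27 CPM, while the points of Hoxb4 and Hoxc9 overlap between the groups.

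Among the posterior members, Hoxc10 and Hoxa9 rose. Hoxc10 belongs to the group that specifies lumbar vertebrae. Hoxc10 (chr15:102966796-102971893) was at 8.47, 24.3 and 14.7 CPM with ITA-LNP and had 0 reads in all 4 control-LNP libraries. Its ITA-LNP mean of 15.8 ± 7.98 CPM (SD, n = 3) was at least 30.0-fold higher than the limit per library (log2 fold change 3.96 ± 0.73, adjusted p = 0.00505, limma). Hoxa9, a thoracic and lumbar member also active in blood progenitors and endothelium, lies at chr6:52223100-52231089. It was at 10.2, 11.6 and 12.5 CPM with ITA-LNP, the closest replicate agreement of the 6 genes that rose. In the control-LNP libraries it had a single read, in replicate 2, and the ratio of pooled levels was 265 with a 95% counting interval of 47.1 to 10516 (log2 fold change 3.58 ± 0.68, adjusted p = 0.00560, limma).

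The paralogs of Hoxc10 were lower and less even. Hoxd10 was at 0, 10.8 and 8.51 CPM with ITA-LNP, with 1 read over all control-LNP libraries. At a log2 fold change of 2.2 ± 0.91 it missed the threshold (adjusted p = 0.142, limma) and passed without ITA-LNP replicate 1 (3.34, adjusted p = 0.00984). Hoxa10 was at 6.59, 6.19 and 0 CPM with ITA-LNP, with 3 reads over all control-LNP libraries. All 3 members of the group therefore had reads in at least 2 ITA-LNP libraries and at most 1 read in any control-LNP library.

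Hoxc9 and Hoxd9 departed from this pattern. Hoxc9, a thoracic member that sets motor neuron columns, was at 11, 3.83 and 19.6 CPM with ITA-LNP, against 3.55, 22.3, 0.769 and 1.80 CPM in the control-LNP libraries. The highest value of all was that of control-LNP replicate 2, where Hoxc9 supplied 81.4% of Hox reads. Its log2 fold change was 1.15 ± 1.11 (adjusted p = 0.563, limma), and the control-LNP mean of 7.10 CPM fell to 2.04 CPM without that library. In the same library white adipocyte markers summed to 345 CPM, against 51.7 to 72.9 CPM in the other control-LNP libraries. Of this, 328 CPM was Fabp4, a fatty acid carrier that endothelium also makes. Retn was at 16.3 CPM there, against 1.18, 3.85 and 1.80 CPM in control-LNP replicates 1, 3 and 4. Plin1 was at 0 there, against 2.17, 0.385 and 0.820 CPM. Plin4 and Cfd stayed at or below 0.748 CPM in every control-LNP library. Adipoq, Lep and Cidec had 0 reads in all of them. Neutrophil markers summed to 26556.5 CPM in control-LNP replicate 2, against 918 to 10209 CPM in the other control-LNP libraries. B cell markers summed to 724 CPM there, against 1911 to 2079 CPM. The part of any of these cells in the Hoxc9 level was not tested. Hoxd9 (chr2:74697727-74700208) had 0 reads in all ITA-LNP libraries and was at 3.94, 0, 0.385 and 1.97 CPM in the control-LNP libraries, a mean at least 3.56-fold higher than the limit, or 0.784 CPM as a mean without control-LNP replicate 1. Hoxb9, of the same group, had 27 reads in ITA-LNP replicate 2, 0 in the other two and 11 reads over the control-LNP libraries.

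The clusters differed in how far apart the groups stood. HoxA summed to 301, 191 and 143 CPM with ITA-LNP and to 6.11, 1.94, 6.92 and 6.23 CPM in the control-LNP libraries, a ratio of means of 40.0. For HoxB the sums were 78.0, 159 and 140 CPM against 27.0, 2.69, 16 and 24.3 CPM (ratio 7.17). The sums of HoxC were 37.8, 52.3 and 83.1 CPM against 5.32, 22.6, 1.92 and 2.62 CPM (ratio 7.12), and its control-LNP mean of 8.11 CPM was 3.29 CPM without control-LNP replicate 2. HoxD was the lowest cluster in ITA-LNP, at 0.941, 25.6 and 12.6 CPM against 4.33, 0.150, 0.385 and 2.13 CPM. Its ITA-LNP replicate 1 fell below 2 control-LNP libraries, and HoxD was the only cluster whose sums overlapped between the groups. As shares of Hox reads, HoxA made up 72.1%, 44.6% and 37.8% in the ITA-LNP and 14.3%, 7.10%, 27.5% and 17.7% in the control-LNP libraries. In control-LNP replicates 1, 3 and 4, HoxB made up 63.1%, 63.4% and 68.8%, and in replicate 2 HoxC made up 82.5%. The Hox reads of 3 of the control-LNP libraries were thus mainly HoxB and those of the ITA-LNP libraries mainly HoxA and HoxB. In control-LNP replicates 1, 3 and 4 the HoxB reads were few, at 137, 83 and 148. Hoxb4 alone gave 60, 56 and 106 of them.

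**Figure D5:**
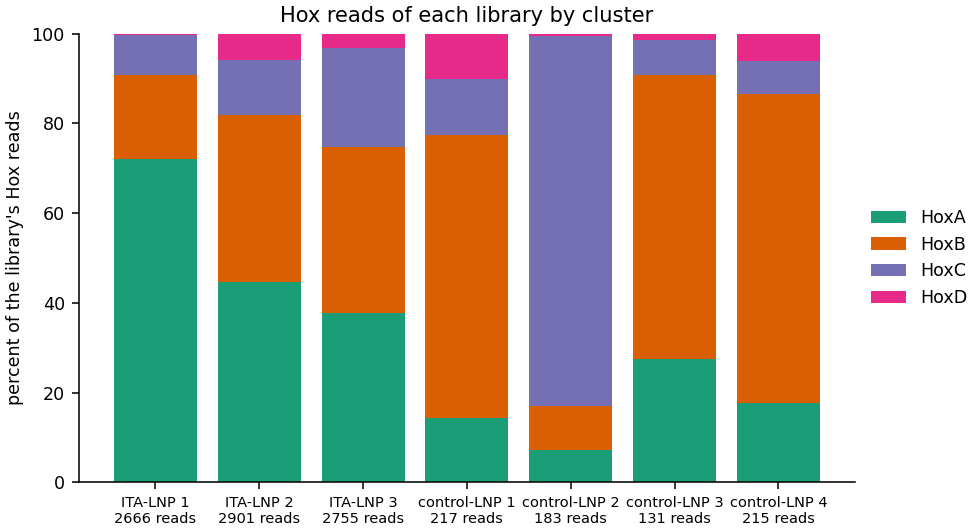
Share of each library's Hox reads, in percent, that fell to HoxA, HoxB, HoxC and HoxD, as stacked bars per library. HoxA fills 37.8% to 72.1% of the ITA-LNP bars, HoxB over 60% of control-LNP replicates 1, 3 and 4, and HoxC 82.5% of control-LNP replicate 2.

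Over all 39 members, 8 had every ITA-LNP library above every control-LNP library: Hoxa2, Hoxa5, Hoxa9, Hoxb2, Hoxb3, Hoxc6, Hoxc8 and Hoxc10. All 8 were among the 16 tested genes, and 19.1% of all tested genes had such a separation. The reverse separation was found for 0 members, against 10.7% of all tested genes. Members without reads, and those that passed the filter through the ITA-LNP libraries, could hardly show it. These counts of separation are therefore a description only. Control-LNP smooth muscle markers summed to 1.42% of their ITA-LNP level, fibroblast markers to 1.08% and all Hox genes to 8.0%. Of 8 endothelial markers 6 rose, and the list summed to 24.2%, or to 0.910% without Pecam1 and Vwf, which platelets also make and which were set aside after their values were seen. Blood markers went the other way, with B cell markers at 5.22 to 25.3 CPM in the ITA-LNP and 724 to 2079 CPM in the control-LNP libraries. A list of blood stem and progenitor markers, which holds genes also made by endothelium, summed to 196 to 272 CPM and 88.4 to 118 CPM, with 2 of 10 members higher and 2 lower. The treatment and the cell content of the libraries cannot be told apart in this design.

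Several Hox genes were present in 1 ITA-LNP library and missing in another. Of 17 members with at least 50 reads in an ITA-LNP library, 5 had 0 or 1 read in another, which is 29.4%, among them Hoxb6, Hoxb7, Hoxd4 and Hoxd10. Over all genes the share was 23.9% (2782 of 11647), and over genes in the same range of reads, 73 to 1133 in their highest ITA-LNP library, it was 22.7%. The pattern was therefore about as common among other genes. In control-LNP replicates 1, 3 and 4 it was found in 0.548% of genes. The SD of the ITA-LNP libraries given above includes these dropouts.

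Hox proteins bind DNA together with partners of the TALE homeodomain family, the Pbx, Meis and Pknox proteins. Of 9 such genes 8 were tested, and 3 rose and 0 fell, against 10.3% and 5.15% of all tested genes, with a median log2 fold change of 1.43. Meis2 was at 100, 64.8 and 47.1 CPM with ITA-LNP, against 0.591, 0.748, 0.385 and 0.164 CPM in the control-LNP libraries (5.56 ± 0.82, adjusted p = 0.00178, limma). Meis1 was at 53.5, 55.3 and 48.5 CPM against 8.08, 3.29, 0.192 and 3.61 CPM (3.8 ± 0.92, adjusted p = 0.0196, limma). The groups of both genes did not overlap. The call of Meis1 was lost without ITA-LNP replicate 1, 2 or 3 (adjusted p = 0.0800, 0.0755 and 0.0713). Leaving out 1 library gave 1 to 3 higher genes on this list.

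Retinoic acid and the Cdx factors set Hox expression in the embryo. Of 20 genes of retinoic acid handling and Hox induction 10 were tested, and 3 rose and 0 fell, against 10.3% and 5.15% of all tested genes (median log2 fold change 1.01). Cdx1, Cdx2 and Cdx4 had 0 reads in every library. Cyp26b1, which degrades retinoic acid, was at 16.5, 14.6 and 31.4 CPM against 0, 0, 1.15 and 0.328 CPM (3.99 ± 0.80, adjusted p = 0.00756, limma). Its groups did not overlap. The receptor gene Rxra was at 38.9, 43.8 and 26.5 CPM against 5.71, 0.299, 3.65 and 5.58 CPM (3.18 ± 0.92, adjusted p = 0.0440, limma). It lost its call without control-LNP replicate 1, 3 or 4 (adjusted p = 0.0681, 0.102 and 0.0827) or any of the ITA-LNP replicates 1 to 3 (0.143, 0.140 and 0.102).

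Polycomb proteins keep silent Hox genes off, and Trithorax proteins such as that of Kmt2a keep active ones on. Of 29 such genes 27 were tested, and 1 rose and 0 fell, against 10.3% and 5.15% of all tested genes. The median log2 fold change was 0.10, against 0.15 over all tested genes. Cbx6, a chromatin-reading Polycomb subunit, was at 125, 129 and 181 CPM against 25.2, 1.05, 26.9 and 21.2 CPM (3.42 ± 0.96, adjusted p = 0.0384, limma). It lost its call without control-LNP replicate 4 (adjusted p = 0.0565) or any of the ITA-LNP replicates 1 to 3 (0.115, 0.114 and 0.146). Kmt2a, the first of the list by mean level, was at 134, 134 and 169 CPM against 479, 196, 209 and 351 CPM (-0.99 ± 0.41, adjusted p = 0.141, limma). It passed as lower without control-LNP replicate 2 (-1.17, adjusted p = 0.0265). Without that library 4 of the 27 tested genes of the list were lower, where 2065 of all 12893 genes tested in that setting were lower.

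Genes next to the clusters were read as a comparison within the same chromosome regions. Of 13 neighbours measured, 9 were tested, with 0 higher and 1 lower, against 10.3% and 5.15% of all tested genes. The median log2 fold change was 0.64, against 0.15 over all tested genes. A list of 9 is too short to tell 0 higher from a share of 10.3%. The lower gene was Skap1, an adaptor of T cell signalling beside HoxB, at 0.471, 10.2 and 0.137 CPM against 90.2, 113, 69.8 and 74.5 CPM (-5.02 ± 0.93, adjusted p = 0.00505, limma). T cell markers moved in the same direction, at 39.4 to 63.2 CPM against 529 to 1044 CPM in sum, and their part in the Skap1 level was not tested. Skap2, a homolog beside HoxA, was at 79.4, 129 and 115 CPM against 282, 37.5, 238 and 185 CPM (-0.48 ± 0.68, adjusted p = 0.715, limma). Without control-LNP replicate 2 it passed as lower (-1.12, adjusted p = 0.0179, limma). Without that library Cbx5, a heterochromatin gene beside HoxC named after its values were seen, passed as higher (0.97, adjusted p = 0.0304, limma).

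Transcription factors that mark position or mesoderm type outside the Hox family were set beside them. Of 32 such genes 18 were tested, and 10 rose and 0 fell, against 10.3% and 5.15% of all tested genes, with a median log2 fold change of 4.14. Most of the 18 had few control-LNP reads and passed the filter through the ITA-LNP libraries. A fall could hardly be seen for these, so the counts and the median are a description only. They summed to 1035 to 1274 CPM with ITA-LNP and to 17.5 to 31.9 CPM in the control-LNP libraries, which was 1.97% of the ITA-LNP level, against 8.0% for the Hox genes. Nr2f2, a venous and mesenchymal nuclear receptor, had means of 246 and 2.32 CPM (6.21 ± 0.69, adjusted p = 0.000418, limma). Foxc1, a factor of mesenchyme and vessel development, had means of 185 and 1.58 CPM (6.24 ± 0.75, adjusted p = 0.000659, limma). Gata6, a factor of vascular smooth muscle, had means of 182 and 2.02 CPM (6.01 ± 0.76, adjusted p = 0.000827, limma), and Osr1, a factor of intermediate mesoderm, 106 and 0.995 CPM (5.76 ± 0.82, adjusted p = 0.00147, limma).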

How the data were processed

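RNA of whole abdominal aortas was sequenced with a QuantSeq 3′ kit from 500 ng of total RNA, per the labels' protocols, and mapped to build mm10, per the submitters' processing notes. Not given in the sources used here are the aligner, counter, annotation, strand setting and use of molecular identifiers. The authors deposited log10 of CPM + 1; the base and the added 1 were worked out from the column sums. CPM were recovered as 10 to the value minus 1, and 100% were whole reads within 0.01, which gave the depth of each library.

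Groups and replicate numbers were read from the titles, where NP stands for the LNP of the treatment protocol. Values were converted to log2(CPM + 1) and filtered at a mean of at least 1. They were tested with limma-trend (limma 3.58.1, R 4.3.3) on all 7 libraries without covariates, two-sided, with Benjamini-Hochberg adjustment over 12636 genes and a threshold of 0.05. This scale makes changes of low genes look smaller; a positive one means higher with ITA-LNP. The procedure was run on simulated reads with the same spread setting for all genes and without an outlier library or dropouts. That run does not cover these features of the data. Counting intervals are exact at 95%. The members and gene lists were chosen with earlier results of these data known.

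Values in every library were set to be given for the 12 members with the highest mean CPM and for each member past the threshold. Of each gene list, up to 4 genes past the threshold in order of p were named, then the first by mean CPM if fewer than 2 passed. Hoxa7, Hoxb1, Hoxd4, Hoxd9, Hoxd10 and the other members below the rule, whose values are also given, were chosen after their values were seen. Some genes that this rule names, and some sequences, are not reported here; the genes stayed in the tests and counts. Of 12 cluster non-coding RNAs looked for, 0 matched a gene name in the data, so these were not analysed. Alternatives were other filters, pseudocounts of 0.25 and 4 CPM, median centring, quantile normalization, sample weights, a robust prior, a replicate block, a threshold of 0.1 and the omission of each library. The other software was scipy 1.17.1, numpy 2.4.6, pandas 2.3.3 and matplotlib 3.10.9 under Python 3.11.15.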

Additional observations from a re-analysis of the deposited data

Results flagged for a closer look

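In 6 control-LNP values, 1 library lay far from the other 3. The screen covered 14 Hox genes, 12 genes of the lists and the sums by cluster and paralog, and chance alone picks out about 1 in 20 groups. Hoxc9 was at 22.3 CPM in control-LNP replicate 2, which also set the HoxC sum of 22.6 CPM there, and the HoxA sum of that library was lowest at 1.94 CPM. Hoxa3 was highest in control-LNP replicate 1 at 1.18 CPM, Hoxb6 in the same library at 0.788 CPM, and the sum of paralog 6 there was 1.18 CPM.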

How the results depend on the processing

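Hoxa5 and Hoxb2 kept their calls under all 19 alternatives. The 6 higher Hox genes became 2 with median centring or a replicate block, and 4 to 9 when 1 library was left out. Over all genes, 1306 higher and 651 lower became 741 and 1249 with median centring, 2100 and 2243 with sample weights, and 738 and 322 with the replicate block. Lower genes numbered 1401 with quantile normalization and 1093 with voom on median-of-ratios size factors. Without 1 library the counts were 984 to 1988 higher and 401 to 2065 lower, both highest without control-LNP replicate 2. Genes of the lists, 17 higher and 1 lower, became 10 and 3 with median centring. There were 11 higher with the block, and 6, 9 and 2 lower with quantile normalization, sample weights and voom on median-of-ratios size factors. Without 1 library, 1 to 6 were lower. Hoxb4 changed sign with median centring (-0.64), quantile normalization (-0.18), sample weights (-0.47), voom on median-of-ratios size factors (-0.065), and without control-LNP replicate 2 (-0.37) or ITA-LNP replicate 3 (-0.39), and ranged from -0.39 to 1.36 when 1 library was left out. The cause of these changes was not tested. Same-numbered libraries did not deviate together from their group means (correlations of 0.00528, -0.0105 and -0.0173). So few pairs cannot settle whether the replicate numbers stand for a pairing. Both voom fits were chosen after seeing the data, and on recovered reads without those factors voom called 7 Hox genes higher. The planned count models were not run, because the deposited unit is a log scale. At 3 reads per library, levels under 0.412 to 0.591 CPM were not distinguishable from 0.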
